A study of Mus musculus with 6 samples.

Results

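Expression of 8 genes for migration receptors was examined in B cells of the Peyer's patches of the ileum, follicles in which gut antigens keep up GC reactions. They were matched in the data by gene symbol: the chemokine receptors Cxcr3, Cxcr4, Cxcr5, Ccr6, Ccr7, Ccr9 and Ccr10, and the oxysterol receptor Gpr183, also called Ebi2. All 8 were present among the 39179 Ensembl gene identifiers measured by RNA-Seq. GC B cells, gated as Fas+GL7+, and resting (naive) B cells, gated as Fas-GL7-, were sorted from WT female littermates of strain C57BL/6 aged 12 weeks, for which the labels give no other allele and no treatment. For each population 3 pools were made, of 5 mice each. The GC gate takes dark zone and light zone cells together, the resting gate is defined by the absence of Fas and GL7 and so does not select for naive cells alone, and a pool hides differences between mice.

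Chemokine receptors are receptors of the cell membrane that signal through inhibitory G proteins and steer cells along gradients of chemokines laid down mostly by stromal cells. In B cell follicles, Cxcr5 draws cells toward Cxcl13, Ccr7 toward the T cell zone, and Gpr183 toward the outer follicle and the border with the T cells. Within GCs, Cxcr4 is known for placing cells in the dark zone, where they divide and mutate.

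In GRCm38.p6, Cxcr4 (ENSMUSG00000045382) is at chr1:128588199-128592299, Cxcr5 (ENSMUSG00000047880) at chr9:44511787-44526444, Ccr6 (ENSMUSG00000040899) at chr17:8236041-8258519, and Ccr7 (ENSMUSG00000037944) at chr11:99144199-99155077. Gpr183 (ENSMUSG00000051212) is at chr14:121952331-121965193, Cxcr3 (ENSMUSG00000050232) at chrX:101731535-101734147, Ccr9 (ENSMUSG00000029530) at chr9:123767211-123783457, and Ccr10 (ENSMUSG00000044052) at chr11:101172998-101175443. RefSeq promoters were held for 5 of them, 6 promoters in all because Ccr6 has a pair. The 250 bases upstream of the start are printed for the receptor that was highest in both populations (Cxcr4), and for Ccr6 (its upstream promoter) and Gpr183, which were far lower in GC B cells. Each is read 5′ to 3′ on the gene's strand in GRCm38.p6, and capitals mark matches on either strand to the GC box GGGCGG, the B cell octamer ATGCAAAT, the FOXO site TGTTTAC, the Krüppel-like factor site CCACACCC or the TATA box TATAAA.
Cxcr4 (chr1:128592300-128592549, minus strand): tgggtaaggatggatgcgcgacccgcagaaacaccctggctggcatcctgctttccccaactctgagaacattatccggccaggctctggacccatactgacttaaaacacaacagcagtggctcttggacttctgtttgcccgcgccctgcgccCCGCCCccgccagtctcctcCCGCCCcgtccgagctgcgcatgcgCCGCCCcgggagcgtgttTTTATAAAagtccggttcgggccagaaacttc
Ccr6 (chr17:8235793-8236042, plus strand): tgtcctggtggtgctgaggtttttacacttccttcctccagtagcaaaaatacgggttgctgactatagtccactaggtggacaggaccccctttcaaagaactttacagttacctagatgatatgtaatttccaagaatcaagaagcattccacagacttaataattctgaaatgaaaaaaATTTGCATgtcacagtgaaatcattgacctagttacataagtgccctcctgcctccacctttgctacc
Gpr183 (chr14:121965194-121965443, minus strand): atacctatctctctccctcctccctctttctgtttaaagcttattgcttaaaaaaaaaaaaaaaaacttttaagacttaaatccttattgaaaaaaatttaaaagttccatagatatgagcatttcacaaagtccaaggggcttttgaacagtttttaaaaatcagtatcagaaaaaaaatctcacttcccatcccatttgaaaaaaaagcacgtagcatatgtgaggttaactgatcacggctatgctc
The Cxcr4 promoter had 61.2% G and C and 19 CpG dinucleotides, with 3 GC boxes and 2 overlapping TATA box matches, 1 on each strand. The Ccr6 promoter shown had 41.2% G and C, 1 CpG and 1 octamer. The other Ccr6 promoter, not printed, had 46.0% G and C and 7 CpG, and none of the 5 marked motifs. The Gpr183 promoter had 32% G and C and 2 CpG, and none of the 5 marked motifs. Over 32851 RefSeq promoters of the same length, the median was 52.4% G and C with 6 CpG. The GC box was found in 32.7% of them, the TATA box in 12.4%, the FOXO site in 3.17%, the Krüppel-like factor site in 3.20% and the octamer in 1.60%. The E-box CANNTG, which occurs in 66.2% of all promoters and is not marked, was matched 2 times in the Gpr183 promoter and 0 times in the Cxcr4 promoter and in the Ccr6 promoter shown. The Cxcr4 promoter was thus richer in G and C than the median and the other printed promoters poorer, and a letter match says nothing on binding.

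Levels are given as TPM (transcripts of a gene per 1000000 transcripts, corrected for their length), computed from the deposited FPKM. Depth was estimated at about 9900000 to 10900000 reads per GC pool and 9600000 to 16200000 reads per naive pool, from the steps between low values of genes with a single transcript. Only 67.7% to 73.8% of these values lay within 0.15 read of a whole number, so reads are approximate and no count test was made. The gates were checked with marker genes. Fas, used in the sort, ranged from 108 to 119 TPM across GC pools and from 3.03 to 3.59 TPM across naive pools, 5 of 6 GC markers were higher in GC B cells (Lmo2, the highest, was lower), and all 4 naive markers measured were lower, with a summed level of 108 to 119 TPM against 1454 to 1548 TPM in naive pools (highest, Fcer2a). GC and naive pools did not overlap, in either direction, for 70.7% of all genes that reached 1 TPM in at least 3 pools. Markers of other cell types are given beside the receptors they bear on.

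In naive B cells, 5 of the receptors were expressed well above 1 TPM, with Cxcr4 highest, followed by Cxcr5, Ccr6, Ccr7 and Gpr183, and then, below 1 TPM, Ccr9, Cxcr3 and Ccr10. In GC B cells, Cxcr4 and Cxcr5 stayed on top, Ccr6 was the next, and the remaining 5 were near or under 1 TPM. Neighbours in the order of naive levels were separated in all pools except Ccr7 and Gpr183, whose ranges overlapped. In GC B cells, Gpr183 overlapped with Ccr7, and Ccr7 with Ccr10. The plot of expression by pool shows how far the populations part for each gene.

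**Figure D1:**
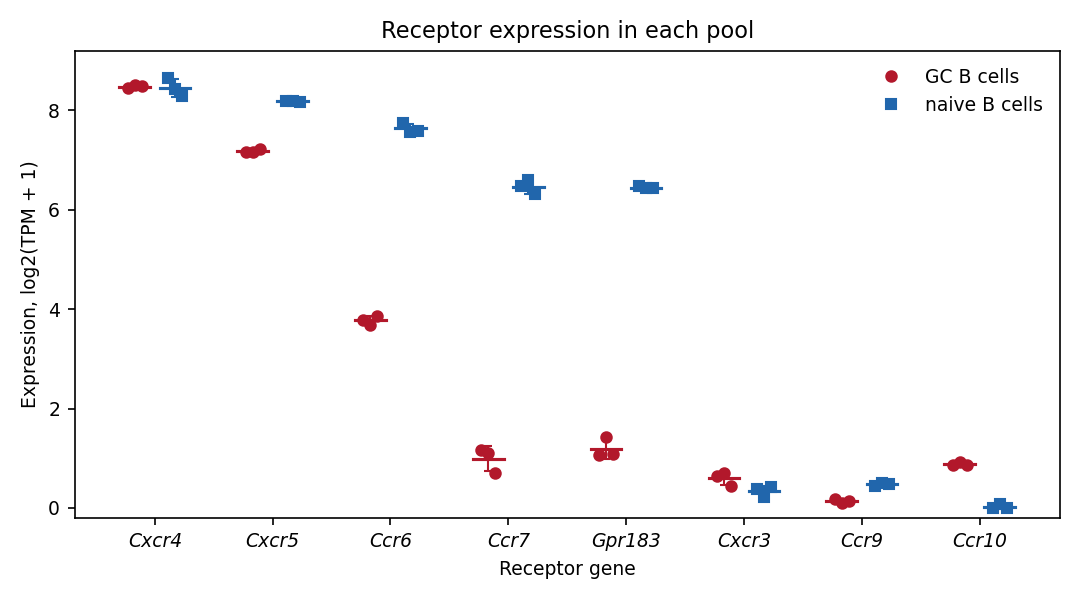
Expression of the 8 receptor genes as log2(TPM + 1) on the vertical axis, with 1 red circle per GC pool and 1 blue square per naive pool, and a line and bar for the mean ± SD of 3 pools. The populations lie over each other for Cxcr4 and apart for Cxcr5, Ccr6, Ccr7 and Gpr183, while Cxcr3, Ccr9 and Ccr10 lie under 1 TPM in every pool.

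Differences between GC and naive B cells were tested with limma on log2(TPM + 1), over the 12785 genes that reached 1 TPM in at least 3 of the 6 pools, and called at a Benjamini-Hochberg adjusted p under 0.05. Of the 5 receptors that passed this filter, 4 were called lower and 0 higher in GC B cells, and Cxcr4 was not called. The populations differed widely: 30.1% of all genes tested were called lower and 35.5% higher in GC B cells, and the pools of both populations did not overlap for 70.7% of the genes, as for the same 4 receptors. Ccr7 reached 1 TPM in all naive pools but in 2 of 3 GC pools, and so passed the filter through its naive level. The count is therefore a description. In bulk RNA, fewer cells that express a receptor and less of its RNA per cell cannot be told apart.

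Cxcr4, the receptor for Cxcl12, was measured at 347, 362 and 358 TPM in GC pools and at 399, 342 and 312 TPM in naive pools. The GC values lay inside the range of the naive values. GC B cells had a mean of 356 ± 7.88 TPM and naive B cells of 351 ± 44.1 TPM (SD, n = 3 pools each), a difference of 0.03 on the log2 scale (SE 0.09, 95% interval -0.19 to 0.24; limma, adjusted p = 0.803). The interval corresponds to a GC level between 0.878 and 1.18 times that of naive B cells on the TPM + 1 scale, so the data are compatible with any difference within this span. The sign of the fitted difference depended on the scaling of the pools: it was -0.024 with FPKM as deposited, -0.013 with median-of-ratios scaling and -0.084 with quantile normalization, and it was also negative without naive replicate 3 (-0.053). Cxcr4 also varied among the naive pools more than most genes of like level. Its coefficient of variation there was 12.6%, above that of 88.8% of the 578 genes with 0.5 to 2 times its mean, whose median was 5.59%. Among the GC pools it was 2.21%, lower than the median of 3.22% for genes of like level.

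Cxcr5, the receptor for Cxcl13 and the defining follicular homing receptor of mature B cells, was at 143, 143 and 148 TPM in GC pools and at 290.0, 290.2 and 289 TPM in naive pools. The ranges did not overlap, and the naive pools were nearly identical in TPM, with a coefficient of variation of 0.315%. Only 0.526% of the 761 genes of like level had a lower one, and their median was 5.63%. The deposited FPKM of the naive pools lay further apart, at 214.8, 212.0 and 223.5. GC B cells had a mean of 144 ± 2.85 TPM and naive B cells of 289.6 ± 0.911 TPM (SD, n = 3 each), which is 2.01-fold lower in GC (log2 difference -0.999, SE 0.04; limma, adjusted p = 1.82e-06). This was a moderate change in these data, since 1532 of the 12785 genes fell by more.

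Ccr6, the receptor for Ccl20, which epithelium over the Peyer's patches is known to secrete, was at 12.8, 11.8 and 13.5 TPM in GC pools. In the naive pools it was at 214, 189 and 191 TPM. All GC pools were thus an order of magnitude below all naive pools. The means were 12.7 ± 0.866 and 198 ± 13.7 TPM (SD, n = 3 each), 15.6-fold lower in GC (log2 difference -3.86, SE 0.08; limma, adjusted p = 2.4e-07). Unlike Ccr7 and Gpr183, Ccr6 kept a level well above 1 TPM in every GC pool, which corresponds to about 132.8 to 159 reads.

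Ccr7, which binds Ccl19 and Ccl21 and directs lymphocytes to the T cell zone, was at 1.25, 1.15 and 0.627 TPM in GC pools and at 88.4, 95.6 and 78.8 TPM in naive pools. The lowest naive pool exceeded the highest GC pool by far. The GC mean of 1.01 ± 0.336 TPM was 1.15% of the naive mean of 87.6 ± 8.46 TPM (SD, n = 3 each), an 86.7-fold difference in mean TPM. On the log2(TPM + 1) scale, which understates the change of a gene this low, the difference was -5.47 (SE 0.15; limma, adjusted p = 6.19e-07), and only 10 genes fell by more. The GC values rest on about 8.0 to 17.8 reads per pool, against about 1054 to 2036 reads per naive pool, and their coefficient of variation of 33.2% was near the median of 38.6% for 2382 genes of like level.

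Gpr183, the receptor for 7α,25-dihydroxycholesterol, followed the same course. It was at 1.09, 1.69 and 1.11 TPM in GC pools and at 87.6, 85.6 and 85.4 TPM in naive pools. The groups were far apart, as for Ccr7, and the naive pools differed little from each other, with a coefficient of variation of 1.44%. The median for 2749 genes of like level was 6.58%. The GC mean of 1.30 ± 0.339 TPM was 1.51% of the naive mean of 86.2 ± 1.24 TPM (SD, n = 3 each), 66.4-fold lower (log2 difference -5.26, SE 0.12; limma, adjusted p = 3.14e-07), with 16 genes falling by more. Gpr183 lies within Ubac2, which is read from the opposite strand, and the use of strand in counting is not given in the sources used here. Ubac2 was at 50.5, 58.8 and 53.3 TPM in GC pools and at 31.3, 32.6 and 31.3 TPM in naive pools, so the level of the host gene moved the other way.

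**Figure D2:**
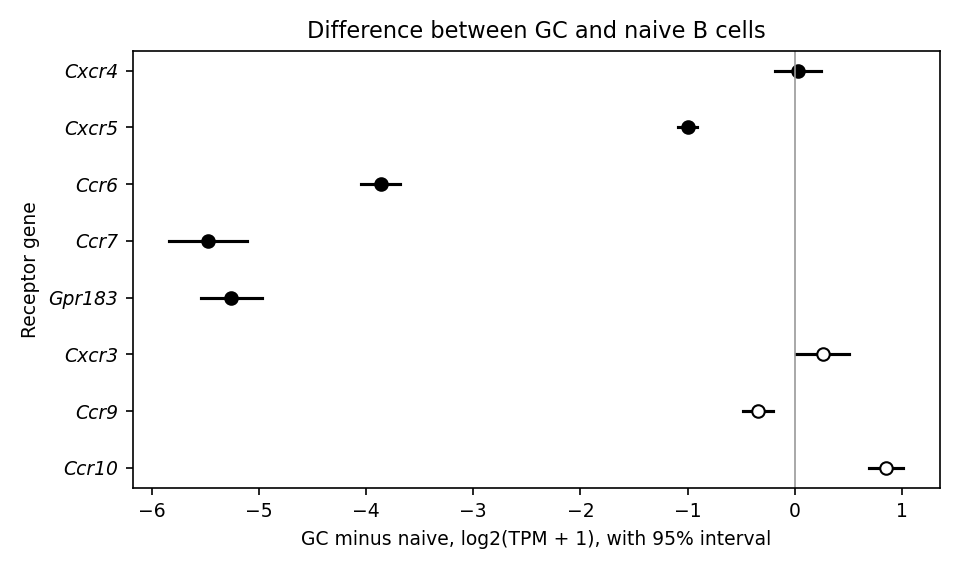
Difference between GC and naive B cells on the log2(TPM + 1) scale for each receptor (horizontal axis), as a point with its 95% interval from limma. Filled points are from the fit with the filter and open points from the fit without it. Ccr7 (-5.47), Gpr183 (-5.26), Ccr6 (-3.86) and Cxcr5 (-0.999) lie left of 0, and the interval of Cxcr4 spans 0.

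Markers of other cell types were read beside the receptors that were high in naive pools. The 9 myeloid and dendritic cell markers, cells that can also express Ccr7 and Gpr183, summed to 2.29 to 2.70 TPM in GC pools and 5.09 to 7.87 TPM in naive pools (highest, Lyz2), and 6 of them were under 1 TPM in every pool, 2 of these at 0. Their sum was thus higher in naive pools. The 10 T cell markers summed to 12.1 to 15.4 TPM in GC pools and 12.0 to 15.4 TPM in naive pools (highest, Cd247), with 5 under 1 TPM in every pool and 0 listed at 0 throughout. These like sums held moves in both directions, since 3 of the T cell markers were higher in all GC pools and 2 lower. Over all genes tested, pools did not overlap for 70.7%. The 9 epithelial markers summed to 28.6 to 50.3 TPM in GC pools and 62.3 to 94.9 TPM in naive pools (highest, Krt8), with 0 at 0 in every pool. Their part in the receptor levels was not tested.

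Cxcr3, Ccr9 and Ccr10 did not reach 1 TPM in any pool, and were tested only in a fit of all 20845 genes above 0 in at least 1 pool, in which 18.7% of genes were called lower and 22.7% higher in GC B cells. Without the filter, 5 of the 8 receptors were called lower and 1 higher. At about 0 to 14.2 reads per pool, these values say little on the size of a change.

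Ccr10, the receptor for Ccl27 and Ccl28 known from IgA plasma cells and their precursors, was at 0.813, 0.886 and 0.808 TPM in GC pools. Of the naive pools, the first and the third were at 0, and the second was at 0.0547 TPM, which is worth about 1.0 read. Detection was thus nearly confined to GC pools, at about 8.9 to 9.9 reads each. The fitted difference of 0.85 on the log2(TPM + 1) scale (SE 0.06; limma, adjusted p = 0.000153) is set in part by the pseudocount and was between 0.83 and 3.02 over 8 alternatives, in all of which it was called. Ccr10 overlaps with Cntnap1 on the opposite strand, which itself was at 1.56, 1.12 and 1.62 TPM in GC pools and at 0.135, 0.0137 and 0.0516 TPM in naive pools. The overlap was taken from the spans of the genes, and whether their exons overlap was not tested. Only reads from a shared stretch could not be told apart without strand. Of the 6 plasma cell markers, 2 were higher in all GC pools and 3 lower, and their sum was 787 to 823 TPM in GC pools and 219 to 252 TPM in naive pools, in GC pools mostly from Jchain, the joining chain of IgA and IgM, at 656 to 693 TPM in GC pools and 22.1 to 40.3 TPM in naive pools. Over all genes tested with the filter, the pools of both populations did not overlap for 70.7%. Of the plasma cell markers 1 (Tnfrsf17) stayed under 1 TPM in every pool, and the part of plasma cells in the Ccr10 level was not tested.

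Ccr9, the receptor for Ccl25 and known for homing of lymphocytes to the small intestine, was at 0.138, 0.0692 and 0.0976 TPM in GC pools and at 0.365, 0.424 and 0.400 TPM in naive pools. The ranges did not overlap, and every value was low, at about 1.4 to 3.1 reads per GC pool and 8.4 to 14.2 reads per naive pool. The fitted difference was -0.34 (SE 0.06; limma, adjusted p = 0.00395). It depended on the pseudocount, was between -1.31 and -0.32 over 8 alternatives, and was called in all of them. Ccr9 overlaps with 6 genes of the NCBIM37 annotation, among them Gm10052 on the opposite strand, which was at 7.95, 5.61 and 4.10 TPM in GC pools and at 72.0, 67.7 and 48.7 TPM in naive pools. Lztfl1, also on the opposite strand, was at 13.8, 18.4 and 12.3 TPM in GC pools and at 13.2, 15.2 and 10.1 TPM in naive pools, so its ranges overlapped. The other 4 genes were under 2 TPM in every pool. The part of reads shared with these neighbors was not tested.

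Cxcr3, which binds the interferon-induced chemokines Cxcl9, Cxcl10 and Cxcl11, was at 0.565, 0.623 and 0.362 TPM in GC pools and at 0.297, 0.164 and 0.336 TPM in naive pools. In TPM, all GC pools lay above all naive pools, by a small margin and at about 3.0 to 6.9 reads. This separation depended on the rescaling, since the deposited FPKM was 0.26 in both GC replicate 3 and naive replicate 3. The difference was 0.26 (SE 0.10) and was not called (limma, adjusted p = 0.0929), whereas it passed without GC replicate 3, the lowest GC pool (0.33, adjusted p = 0.0357). Over 8 alternatives it lay between 0.20 and 0.76, with the adjusted p between 0.0357 and 0.204.

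Because all receptors are on a scale per transcript length, their composition was compared within each pool. Summed TPM of the 8 genes was 517 ± 8.69 in GC and 1013 ± 62.0 in naive B cells (SD, n = 3 pools each). Cxcr4 made up 68.9% ± 0.580 of the sum in GC pools and 34.5% ± 2.20 in naive pools, although its level was not called different. The share of Cxcr5 overlapped between populations, at 27.9% ± 0.514 and 28.6% ± 1.66. The share of Ccr6 was 2.46% ± 0.172 in GC and 19.6% ± 0.599 in naive pools. Those of Ccr7 (0.196% ± 0.0671 against 8.65% ± 0.762) and Gpr183 (0.251% ± 0.0634 against 8.52% ± 0.404) differed most in proportion among the 5 receptors that passed the filter. The stacked plot of shares displays this shift from 5 receptors to mainly a pair.

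**Figure D3:**
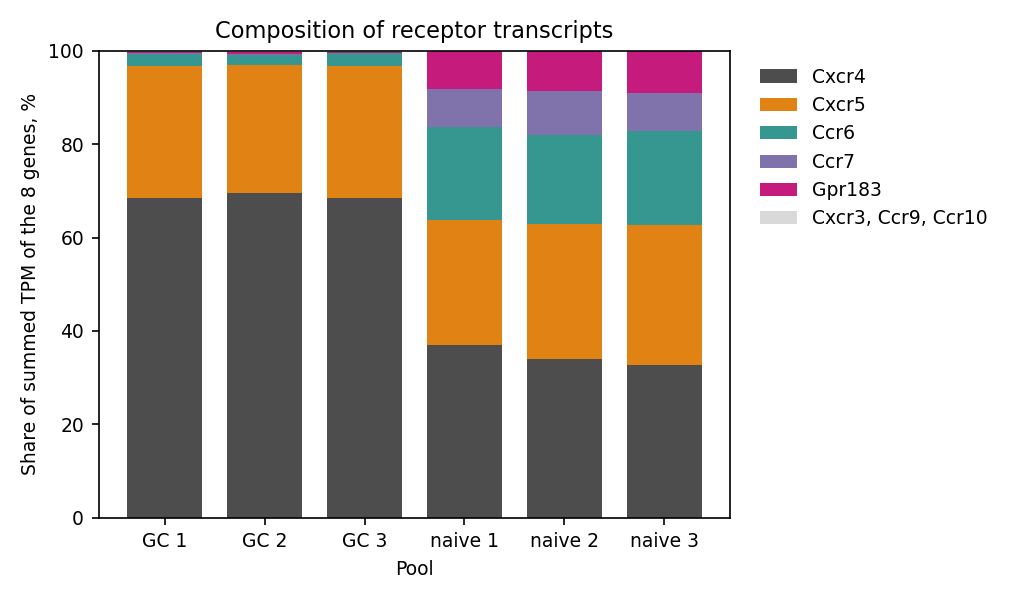
Share of each receptor in the summed TPM of the 8 genes (vertical axis, %), with 1 bar per pool. Cxcr4 and Cxcr5 together fill nearly the whole bar in the 3 GC pools, while Ccr6, Ccr7 and Gpr183 take up visible shares in the 3 naive pools.

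Ratios within a pool do not depend on the scaling factor of that pool. The ratio of Cxcr4 to Cxcr5 was 2.43, 2.54 and 2.43 in the GC pools and 1.38, 1.18 and 1.08 in the naive pools. Each GC pool thus carried more Cxcr4 relative to Cxcr5 than any naive pool. The ratio of Ccr6 to Cxcr5 was 0.0878 ± 0.00461 in GC and 0.685 ± 0.0467 in naive pools, that of Ccr7 to Cxcr5 was 0.00703 ± 0.00243 and 0.302 ± 0.0283, and that of Gpr183 to Cxcr5 was 0.00901 ± 0.00246 and 0.298 ± 0.00392 (SD, n = 3 each). None of these ratios overlapped between populations, and with 3 pools against 3 a two-sided exact permutation test cannot go below p = 0.10. In contrast, the ratio of Gpr183 to Ccr7 overlapped, ranging from 0.868 to 1.78 in GC pools and from 0.895 to 1.08 in naive pools.

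Genes with the most similar profile were sought by the Euclidean distance of log2(TPM + 1) over the 6 pools, as a description. For Cxcr4 these were Hcls1 (distance 0.302) and Cnbp (0.327), for Cxcr5 Blk (0.174) and H2-Q4 (0.178), and for Ccr6 Sbk1 (0.774) and Emp3 (0.910). Gm8995 was nearest to Ccr7 (0.482) and Rasgef1b to Gpr183 (0.431). Ccr7 and Gpr183 were the next nearest to each other (0.546). Blk, a Src family kinase of B cells, averaged 150 TPM in GC pools and 279.9 TPM in naive pools, close to those of Cxcr5.

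Other genes of the migration pathway were counted from lists. Of 17 other chemokine receptors, 12 were under 1 TPM in every pool, 5 of them at 0 throughout, and 4 were tested. Ackr2, a scavenging receptor for inflammatory chemokines, was at 5.77, 5.54 and 5.67 TPM in GC pools and at 1.17, 1.52 and 1.16 TPM in naive pools, a difference of 1.55 (SE 0.12; limma, adjusted p = 5.06e-05). Ccr1, at 0.331, 0.305 and 0.265 TPM in GC pools and 2.54, 1.94 and 3.54 TPM in naive pools, was lower (-1.48, SE 0.19; limma, adjusted p = 0.000543), and the other 2 were not called. Ccr1 was under 1 TPM in every GC pool and passed the filter only through its naive level, so its call is a description. The median of the list was -0.33, beside 0.03 over all genes tested, of which 35.5% were called higher and 30.1% lower. None of these receptors approached the levels of Cxcr4 or Cxcr5.

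Ligands of the 8 receptors and enzymes of oxysterol metabolism were mostly under 1 TPM in the sorted cells. Of 12 genes measured, 9 were under 1 TPM in every pool, and 4 were at 0 throughout, namely Cxcl12, Ccl19, Ch25h and Cyp7b1, of which the last pair make the Gpr183 ligand. Of the 3 genes tested, 0 were higher and 1 lower in GC B cells, with a median of -0.28. Over all genes tested, 35.5% were called higher and 30.1% lower, with a median of 0.03. Cyp27a1, a sterol 27-hydroxylase, was at 4.69, 5.15 and 3.83 TPM in GC pools and at 15.0, 18.0 and 16.7 TPM in naive pools (-1.66, SE 0.13; limma, adjusted p = 5.09e-05).

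Other receptors that guide B cell position, for sphingosine 1-phosphate, other lipids and related ligands, comprised 18 genes. Of the 12 tested, 9 were lower, 2 higher and 1 was not called, with a median of -2.39. Among all genes tested, 30.1% were called lower and 35.5% higher, with a median of 0.03. S1pr1, the receptor for egress from lymphoid organs, was at 4.71, 4.78 and 4.21 TPM in GC pools and at 211, 245 and 209.7 TPM in naive pools (-5.32, SE 0.09; limma, adjusted p = 1.36e-07). In mean TPM it was 48.6-fold lower in GC, less than Ccr7 or Gpr183. Gpr174, a lysophosphatidylserine receptor (-4.49, adjusted p = 7.48e-07), and Gpr132 (-4.12, adjusted p = 3.46e-06) came next among the lower genes in limma. S1pr2, known to confine B cells to the GC, had the opposite pattern, at 261, 269.6 and 272 TPM in GC pools and 0.999, 0.671 and 0.697 TPM in naive pools (7.24, SE 0.09; limma, adjusted p = 7.61e-08), and S1pr3 was also higher (1.56, SE 0.10; adjusted p = 2.6e-05). S1pr2 was under 1 TPM in every naive pool and passed the filter only through its GC level, so its call too is a description. The same holds for Gpr34, counted among the 9 lower genes, which was under 1 TPM in every GC pool and passed only through its naive level. In GC B cells S1pr2 thus ranked in level between Cxcr4 and Cxcr5.

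The genes that act downstream of these receptors, such as G proteins, receptor kinases, arrestins and regulators of integrins and the cytoskeleton, were called in both directions. Of 35 genes measured, 33 were tested, 10 were higher, 14 lower and 9 not called, with a median of -0.09. Over all genes tested, 35.5% were higher and 30.1% lower, so these counts were near the background. Grk3, counted as lower, was under 1 TPM in every GC pool and passed the filter only through its naive level, so its call is a description. Pik3r5 reached 1 TPM in all naive pools but in 2 of 3 GC pools. It thus passed through its naive level, and its call is a description too. The largest falls were in Pik3r5, a regulatory subunit of the phosphoinositide 3-kinase activated by these receptors (-3.05, adjusted p = 1.34e-06), Arrb1, an arrestin (-2.69, adjusted p = 1.46e-05), and Rassf5, which links Rap1 to integrins (-1.48, adjusted p = 4.62e-06), in limma. The largest rises were in Gna12 (1.41, adjusted p = 9.43e-06) and Gna13 (1.37, adjusted p = 1.65e-05), G proteins known to restrain migration, and in Rap1a (1.22, adjusted p = 1.42e-05). The inhibitory G protein gene Gnai2, picked after its values were seen, was called higher by 0.10 and lost its call in each of 3 other scalings of the pools, with a change of sign in 1. The plot of differences by list sets these beside the receptors.

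**Figure D4:**
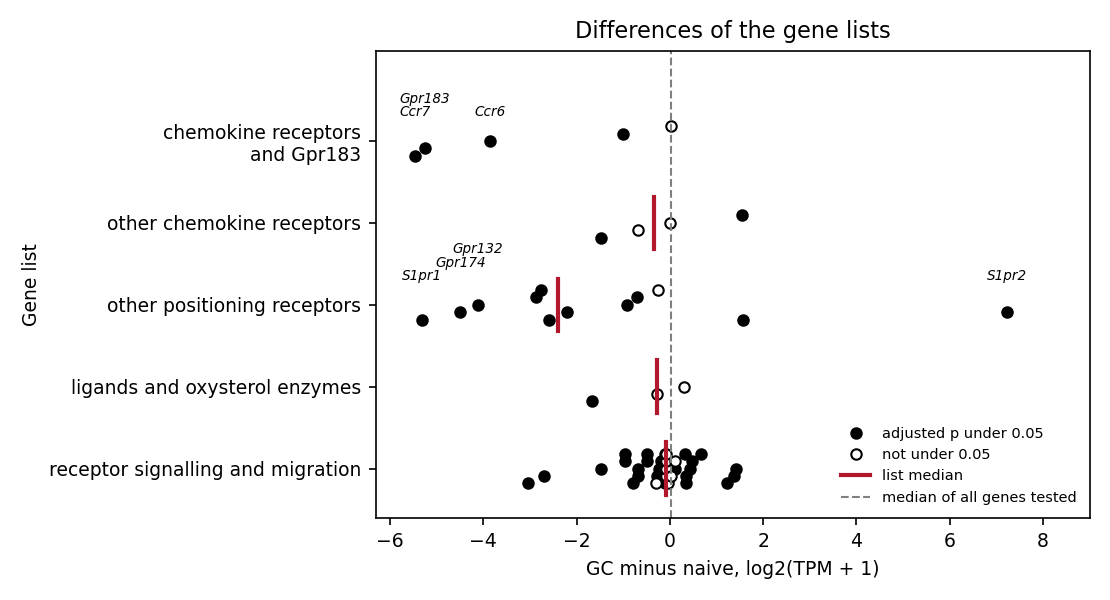
Difference between GC and naive B cells on the log2(TPM + 1) scale (horizontal axis) for each tested gene of 5 lists, with 1 point per gene, filled where limma's adjusted p was under 0.05. Red lines mark the medians of the 4 comparison lists and the dashed line that of all genes tested (0.03), and Ccr7, Gpr183 and S1pr1 lie below -5.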

How the data were processed

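RNA-Seq was analysed from 6 pools of sorted Peyer's patch B cells, 3 of GC and 3 of naive B cells. The authors prepared libraries with the NEBNext Ultra kit, removed adapters with cutadapt 1.9, quantified reads on the mouse transcriptome (NCBIm38, Ensembl release 75) with RSEM 1.2.25 at a fragment length of 180 (SD 50), and deposited FPKM per gene and pool with 2 decimals. RSEM divides reads of similar transcripts by a model, and the use of strand is not given in the sources used here. FPKM were rescaled to TPM (value divided by the pool total, times 1000000). Gene symbols and overlaps came from the NCBIM37 annotation, which named 33398 of 39179 identifiers, and coordinates and promoters from RefSeq (GRCm38.p6).

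GC and naive pools were tested against each other by limma (version 3.58.1, R 4.3.3; lmFit and trended eBayes) on log2(TPM + 1), using genes that reached 1 TPM in at least 3 pools, with Benjamini-Hochberg adjustment over all genes tested and a threshold of 0.05. The fit was checked on simulated data. Shares, ratios and plots were made in Python 3.11.15 with pandas 2.3.3, numpy 2.4.6 and matplotlib 3.10.9. The receptors and lists, matched by gene symbol, were chosen with earlier results of these data known. The genes named are the 8 receptors with their 2 nearest profiles, up to 3 called genes in each direction from each pathway list, and the highest gene of each marker list. Fas, Tnfrsf17, Lmo2, Gnai2, Gpr34, Grk3, Gm10052, Lztfl1, Cntnap1, Ubac2, Cxcl10 and Ccrl2 and the genes listed at 0 were named in addition. In all, 5 listed genes (Ackr4, Ccl21a, Ccl25, Ccl28 and Ighd) had no identifier or more than 1 and were left out. A list of general B cell markers is not reported here. GC and naive pools share replicate numbers, which are not said to mark the same mice, so pools were not paired. Alternatives covered the pseudocount (0.1 and 0.01), the filter, the scaling, the trend, the replicate block, the genes in the total for shares, and each pool left out in turn.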

Additional observations from a re-analysis of the deposited data

How the results depend on the processing

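Of 273 alternative values for 29 results, 262 were taken as the same. Differences of this kind kept their direction and their side of the threshold, counts stayed within 1.5 times, and shares moved by less than their SD over the pools. The differences of Cxcr5 (-1.10 to -0.99), Ccr6 (-3.97 to -3.81), Ccr7 (-6.48 to -5.27) and Gpr183 (-6.07 to -5.09) were called under every alternative in which the gene was tested. Cxcr4 was called under none of 15 (adjusted p between 0.119 and 0.93), and its sign changed with FPKM as deposited (-0.024), median-of-ratios scaling (-0.013), quantile normalization (-0.084) and without naive replicate 3 (-0.053). With each pool left out in turn it lay between -0.053 and 0.123. Cxcr3 was called without GC replicate 3 only (0.33). Fits without the filter that also changed the pseudocount, used the block or left out a pool were added after seeing the data for Cxcr3, Ccr9 and Ccr10. Without the filter, 1 receptor (Ccr10) was called higher, 2 other chemokine receptors (Ccr1 and Ccrl2) lower and 1 ligand (Cxcl10) higher, since more genes were tested. With at least 1 TPM in all 6 pools, 0 other chemokine receptors were lower, 1 other positioning receptor was higher and Ccr7 was not tested, since fewer genes passed. With 25 genes (all chemokine receptors matched and Gpr183) in the total, the Cxcr4 share in GC pools was 67.7% in place of 68.9% ± 0.580, a move larger than its SD. The deviations of same-numbered pools from their group means correlated by 0.0830, 0.0225 and 0.0456 for replicates 1, 2 and 3. Each GC pool correlated best with the naive pool of its own number, but naive replicate 2 correlated best with GC replicate 3 (0.0298). Values this near 0 cannot decide whether same-numbered pools are paired. The main fit left them unpaired because they are not said to share mice. With the replicate block, 7960 genes were called in place of 8392, with 4 receptors lower and 0 higher as before. With each pool left out in turn, the number of genes called lay between 7656 and 8101. Scalings moved the median of all genes by at most 0.09. Depth limits the receptors below 1 TPM, at about 0 to 14.2 reads.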
